A study of Rattus norvegicus with 24 samples.

Results

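The transcripts of 3 inflammatory genes, Casp4, Gbp5 and Ifi27l2b, were followed through all 6 conditions of an RNA sequencing experiment on primary rat oligodendroglia. The members are the count rows ENSRNOG00000033697 (Casp4), ENSRNOG00000032240 (Gbp5) and ENSRNOG00000026605 (Ifi27l2b), that is 3 of 32883 genes listed for most libraries. They were picked because they were higher with dolutegravir (DTG) than with DMSO in differentiated cells, so this difference is described below and not tested. Differences that share the DMSO-treated or DTG-treated OL libraries are likewise given as descriptions.

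Oligodendrocyte precursor cells (OPCs) were purified from the cortices of newborn Sprague Dawley rats by shaking them off mixed glial cultures, after microglia had been shaken off first. OPCs were collected after 24 hours in proliferation medium, either untreated, with the vehicle DMSO at 0.04%, or with DTG at 8 µM, an integrase inhibitor used against HIV. Oligodendrocytes (OLs) were collected after the same 24 hours and a further 72 hours in differentiation medium, again untreated, with DMSO or with DTG throughout. Each of the 6 conditions holds 4 libraries, which the methods describe as cultures from independent litters.

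Inflammatory caspases cleave pore-forming gasdermins, and the open pores release cytokines and can end in pyroptosis, a lytic form of cell death. Casp4 encodes the inflammatory caspase that senses bacterial lipopolysaccharide in the cytosol. Gbp5 encodes a guanylate-binding protein, one of a family of large GTPases that interferon induces and that act on intracellular pathogens and on inflammasome assembly. Ifi27l2b belongs to the ISG12 family of small hydrophobic proteins, several of which are induced by type I interferon. Microglia are the immune cells of the brain in which such genes are best known, so the level of a microglial transcript is given beside the results.

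In the coordinates shared by 22 of the 24 deposited files, for which the processing notes name Rnor_6.0, Casp4 lies on chromosome 8 from 2635851 to 2651652 on the plus strand. Gbp5 lies on chromosome 2 from 248178389 to 248197160 on the plus strand, and Ifi27l2b on chromosome 6 from 127336305 to 127337791 on the minus strand. Counts were summed over exons, which cover 1223 bases for Casp4, 3108 for Gbp5 and 451 for Ifi27l2b. Casp4 and Ifi27l2b have close relatives in the rat genome, and whether uniquely mapped reads were lost or split between near copies was not tested, so their levels are uncertain to that extent. A promoter sequence was at hand for 1 of the 3 members. It is the RefSeq window of Gbp5 on build GRCr8, chr2:233910749-233911048, plus strand, from 250 bases before to 50 bases after the start. It is shown because an interferon-stimulated response element is a known control sequence of this gene family. Capitals mark the match to that element (GAAANNGAAA on either strand), and the corresponding stretch of the neighbouring family member Gbp2, chr2:234005686-234005715, follows it.

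Gbp5 promoter: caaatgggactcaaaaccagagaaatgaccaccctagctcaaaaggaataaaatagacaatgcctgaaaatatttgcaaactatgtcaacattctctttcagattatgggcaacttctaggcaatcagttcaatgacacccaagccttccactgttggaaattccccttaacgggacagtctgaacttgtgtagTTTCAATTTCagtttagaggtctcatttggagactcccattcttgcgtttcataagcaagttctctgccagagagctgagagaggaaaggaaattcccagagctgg
Gbp2 site: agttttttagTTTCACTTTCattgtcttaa

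The Gbp5 match takes up positions 195 to 204 of the window, and Gbp2 has 1 match too. Among 33365 distinct promoter windows of the same length, 3.92% hold this motif. The Gbp5 window also holds 3 matches to an NF-kB site, which 7.53% of the windows contain, none of them overlapping the capitals. Neither the gamma-activated site (TTCNNNGAA, in 8.88% of windows) nor the C/EBP-ATF response element (TGATGNAA, in 3.98%) was found in it. These matches describe the letters of the window only.

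The 24 libraries held between 13241279 and 18499994 counts on genes, and ERCC spike-in transcripts took 1.06% to 7.19% of all counts. At this depth the members are weakly expressed, with between 1 and 129 counts per library, and each of them had its fewest counts over 4 libraries in DMSO-treated OLs. The files of untreated replicate 3, OPCs and OLs alike, list 30560 genes on another annotation in which the exons of Casp4 cover 1598 bases. Of the 21651 identifiers shared with the other files 20.9% have the same exon length, and the gene models of chromosome 1 reach to 260398790 in place of 282724300, so these files may rest on another genome build, which the sources used here do not name for them. These 2 libraries are shown with their values but stayed out of the tests and of the means, which for untreated cells therefore rest on 3 libraries. The OL and OPC markers that could be named, 3 of 9 and 2 of 6 listed, changed in the direction of the labels. They could be named mostly because the study had called them, so this direction was largely set in advance. The other listed markers were not examined. The myelin transcripts Mbp and Mog and the differentiation marker Enpp6 rose by 4.73, 3.20 and 5.10 on the log2 scale from untreated OPCs to untreated OLs (adjusted p = 3.33e-05, 7.70e-06 and 1.36e-05, edgeR quasi-likelihood test). The OPC markers Pdgfra and Cspg4 changed by -1.38 and -2.57 (adjusted p = 0.00766 and 7.80e-05 in that test).

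Levels are given as CPM, the counts of a gene relative to the total counts of its library, scaled with the TMM method over all 24 libraries. In DMSO-treated OLs, Casp4 was counted at 0.759, 0.510, 1.13 and 0.660 CPM in replicates 1 to 4, from 11, 7, 14 and 9 counts. In DTG-treated OLs it was counted at 4.50, 1.49, 4.43 and 4.88 CPM, from 61, 17, 59 and 81 counts. The groups did not overlap, although replicate 2 stood well below the other 3 DTG-treated libraries and close to the highest DMSO-treated one. The means were 3.83 ± 1.57 and 0.765 ± 0.264 CPM (SD, n = 4 each), which is 5.00-fold, and the fitted log2 fold change was 2.33 (standard error 0.41). Without replicate 2 of the DTG-treated OLs it was 2.59.

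Gbp5 was counted at 0.552, 1.02, 1.45 and 0.734 CPM in DMSO-treated OLs, from 8, 14, 18 and 10 counts. With DTG the 4 libraries were at 5.09, 3.07, 4.43 and 3.74 CPM, from 69, 35, 59 and 62 counts. The groups did not overlap. The coefficient of variation of the DTG-treated libraries was 21.3% for Gbp5, beside 41.0% for Casp4 and 53.3% for Ifi27l2b. The means were 4.08 ± 0.870 and 0.940 ± 0.393 CPM (SD, n = 4 each), which is 4.34-fold, and the fit gave 2.12 on the log2 scale (standard error 0.33).

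Ifi27l2b was close to the limit of detection in DMSO-treated OLs, at 0.690, 0.0729, 0.565 and 0.514 CPM from 10, 1, 7 and 7 counts. In DTG-treated OLs the values were 5.16, 1.32, 2.78 and 2.71 CPM, from 70, 15, 37 and 45 counts. The groups did not overlap here either, and replicate 2 was lowest under both treatments. The means were 2.99 ± 1.60 and 0.460 ± 0.269 CPM (SD, n = 4 each), which is 6.50-fold, or 2.68 on the log2 scale in the fit (standard error 0.52). The ratio within replicate 2 rests on 1 count with DMSO and was 18.1, with an exact 95% binomial interval from 2.78 to 761 that covers counting error only.

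In this comparison 0.354% of 12710 tested genes were called higher with DTG, at an adjusted p-value under 0.05 and a log2 fold change over 1, and 3.97% had groups that did not overlap with DTG higher. The members were chosen on this contrast, so nothing is read from these shares. Within replicates, the DTG-treated OL library was above the DMSO-treated one in 4 of 4 pairs for each gene. The ratios ran from 2.93 to 7.39 for Casp4, from 3.01 to 9.22 for Gbp5 and from 4.92 to 18.1 for Ifi27l2b. In bulk RNA, a change in the share of expressing cells and a change in transcript per cell cannot be told apart.

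**Figure D1:**
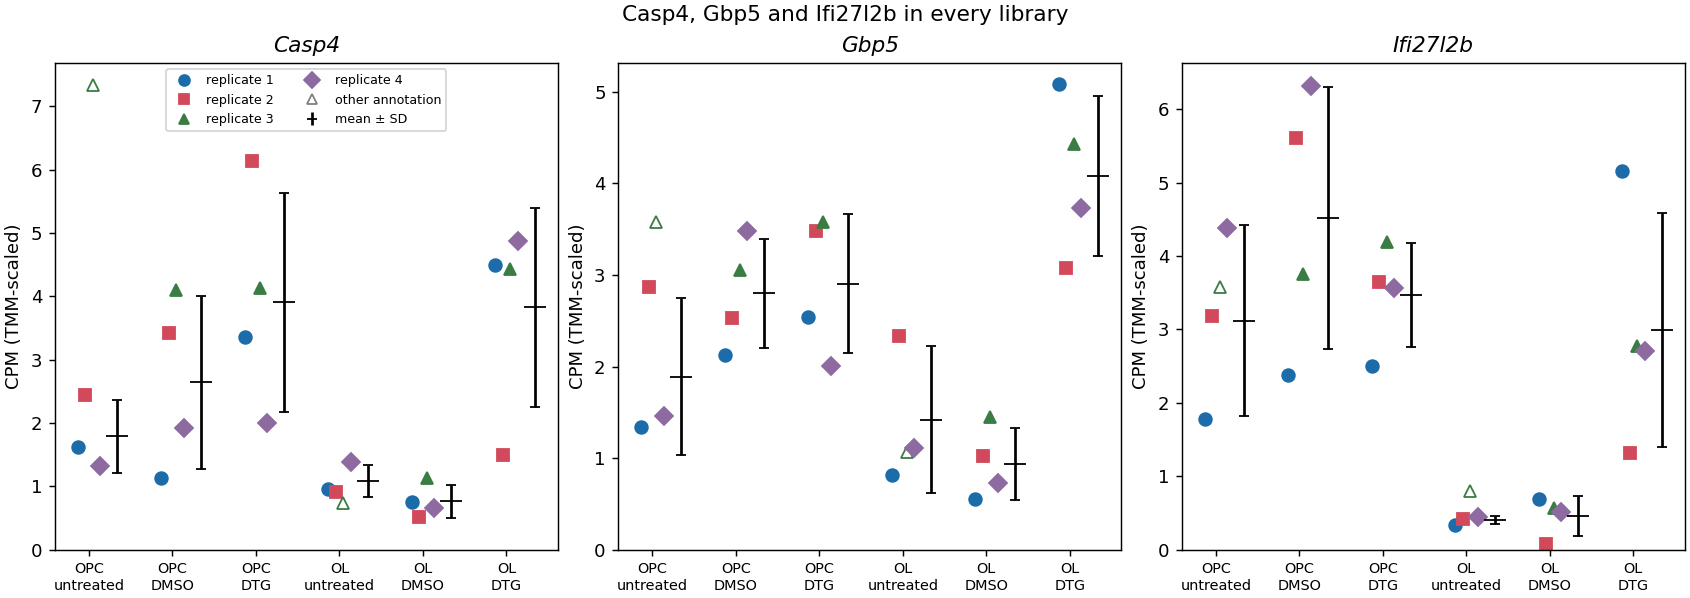
Level of Casp4, Gbp5 and Ifi27l2b (CPM, linear axis) in each of the 24 libraries by condition, with symbols for replicates, open symbols for the 2 libraries on another annotation, and the mean ± SD of the remaining libraries as a black bar. DTG-treated OLs lie above DMSO-treated OLs in all 3 panels, with replicate 2 the lowest DTG-treated OL library in each.

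Untreated OLs were at the low end as well. Over the 3 libraries on the common annotation Casp4 was at 0.957, 0.918 and 1.38 CPM, Gbp5 at 0.821, 2.34 and 1.11 CPM, and Ifi27l2b at 0.342, 0.417 and 0.443 CPM. Replicate 3 on the other annotation had 0.737, 1.07 and 0.804 CPM of the same genes. All 4 DTG-treated OL libraries were above all untreated OL libraries for each member, but these DTG-treated libraries also served to choose the genes. The share of all genes with such a gap was not determined, so nothing is read from it. The ratio of the DTG-treated mean to the untreated mean was 3.52 for Casp4, 2.87 for Gbp5 and 7.47 for Ifi27l2b.

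The same dose of DTG was also given to OPCs for 24 hours, in libraries that played no part in choosing the genes. Casp4 was at 1.13, 3.42, 4.10 and 1.92 CPM in DMSO-treated OPCs, and at 3.36, 6.14, 4.13 and 2.00 CPM in DTG-treated OPCs. The ranges overlapped widely, but the DTG-treated library was above its DMSO-treated partner in 4 of 4 replicates, by 2.98-fold in replicate 1, 1.80-fold in replicate 2 and 1.01-fold and 1.05-fold in replicates 3 and 4. The log2 fold change of 0.57 had a 95% confidence interval from -0.43 to 1.56 and did not pass the test (standard error 0.45, adjusted p = 0.906, edgeR quasi-likelihood test with Benjamini-Hochberg adjustment). That fit leaves out the pairing. A fit blocked on the replicate number gave 0.60 with a standard error of 0.29 and did not pass either (adjusted p = 0.503, edgeR).

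Gbp5 was at 2.13, 2.53, 3.06 and 3.48 CPM in DMSO-treated OPCs and at 2.55, 3.48, 3.58 and 2.00 CPM in DTG-treated OPCs. The means, 2.80 ± 0.591 and 2.90 ± 0.759 CPM (SD, n = 4 each), differed by less than the SD of either group. The interval of its log2 fold change ran from -0.59 to 0.70 (adjusted p = 0.959, same edgeR test). The replicate pairs split as 3 higher and 1 lower with DTG.

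Ifi27l2b was at 2.38, 5.60, 3.75 and 6.31 CPM in DMSO-treated OPCs and at 2.50, 3.65, 4.18 and 3.56 CPM in DTG-treated OPCs. DTG was higher in 2 pairs and lower in the other 2, and the DTG-treated libraries lay inside the range of the DMSO-treated ones. The log2 fold change was -0.37 (95% confidence interval -1.11 to 0.38, adjusted p = 0.906, same edgeR test), and it turned to 0.14 when libraries were scaled to ERCC counts. Of 13270 genes tested in OPCs the edgeR test called 0, a share of 0%, as did DESeq2, and 66 genes (0.497%) had an unadjusted p-value under 0.05. A p-value that misses the threshold does not show equal levels, and for Casp4 the interval includes a change of more than 2-fold. Whether the response differed between OLs and OPCs was not tested, since the OL contrast chose the genes.

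**Figure D2:**
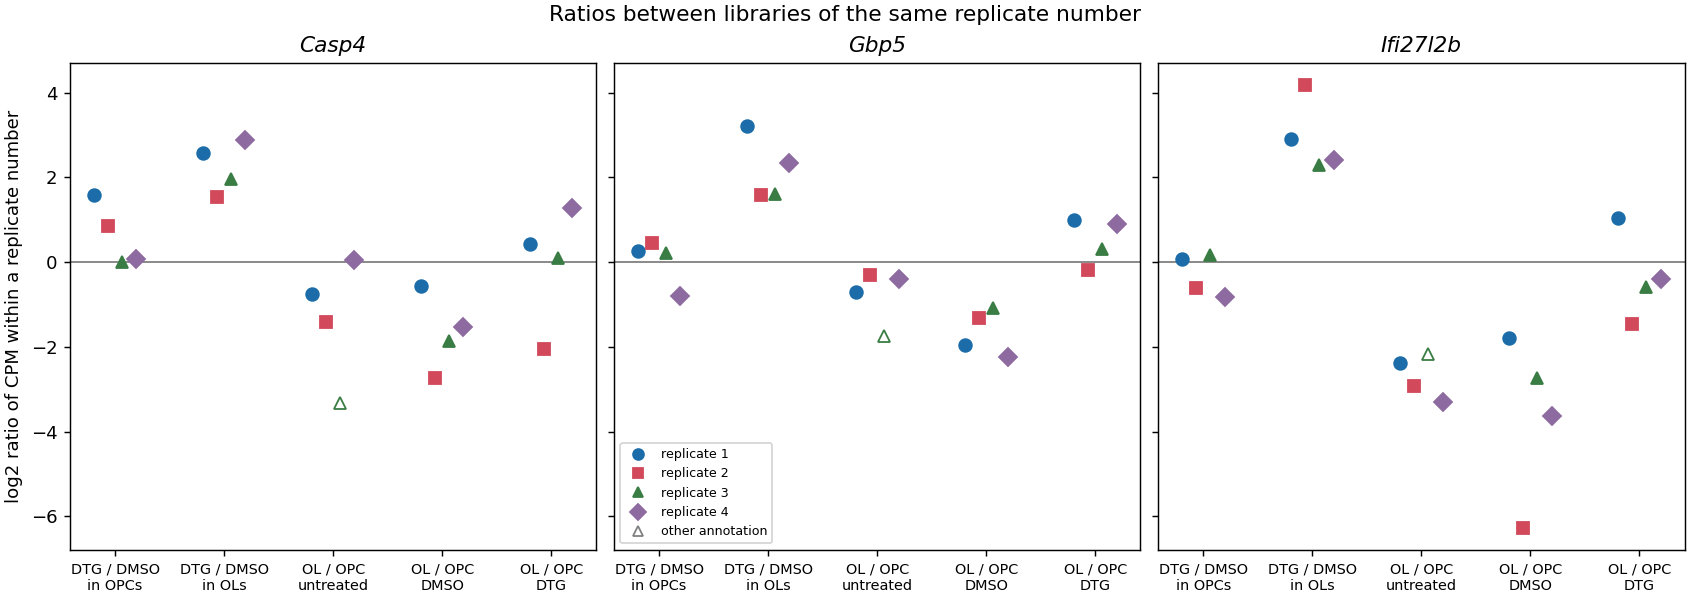
Log2 ratio of CPM between libraries of the same replicate number, for DTG over DMSO in each cell stage and for OLs over OPCs under each treatment, with open symbols where the libraries are on another annotation. The DTG over DMSO ratios in OLs are positive in 4 of 4 pairs for all 3 genes, those in OPCs include values on either side of 0 for Gbp5 and Ifi27l2b, and the OL over OPC ratios with DTG scatter around 0.

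Differentiation without any treatment was compared in libraries that played no part in choosing the genes. They carry the same date codes as the treated libraries, so they may not be independent of them. Ifi27l2b fell from 1.78, 3.19 and 4.38 CPM in untreated OPCs to 0.342, 0.417 and 0.443 CPM in untreated OLs, with no overlap. Its fitted difference was -2.93 on the log2 scale (edgeR quasi-likelihood test, adjusted p = 0.000868, standard error 0.46), and the call held in each of 6 fits that left out 1 library, between -3.21 and -2.61. In this comparison 11.7% of 13110 tested genes were called lower and 26.5% were lower with groups that did not overlap.

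Casp4 was at 1.62, 2.44 and 1.33 CPM in untreated OPCs and Gbp5 at 1.34, 2.87 and 1.46 CPM, and both ranges overlapped those of untreated OLs. The log2 fold change of Casp4 was -0.71 (95% confidence interval -1.58 to 0.16, adjusted p = 0.181) and that of Gbp5 was -0.44 (-1.51 to 0.63, adjusted p = 0.506) in the same edgeR test. Neither was called. With replicate 3 added over the 21651 identifiers that both annotations hold, Casp4 reached -1.67 (adjusted p = 0.0459, same test). The untreated OPC library of replicate 3 had 7.34 CPM of Casp4 from 129 counts, the most of any library, on the longer gene model. In fits over the shared identifiers chosen after seeing the data, Casp4 stood at -0.71 with neither replicate 3 library (adjusted p = 0.185, edgeR), at -1.58 with the OPC library alone added (adjusted p = 0.112) and at -0.84 with the OL library alone added (adjusted p = 0.104).

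Between DMSO-treated OPCs and OLs, whose OL libraries also served to choose the genes, the log2 fold changes were -1.78 for Casp4, -1.57 for Gbp5 and -3.26 for Ifi27l2b (standard errors 0.45, 0.37 and 0.50). All 3 were lower in OLs in 4 of 4 pairs. Gbp5 and Ifi27l2b had groups that did not overlap, while those of Casp4 met at 1.13 CPM, and 22.9% of 13023 genes were lower in OLs without overlap. Between DTG-treated OPCs and OLs the values are a description too, since the genes were chosen for being higher in these OLs than with DMSO. The OL mean stood at 97.9% of the OPC mean for Casp4, at 141% for Gbp5 and at 86.2% for Ifi27l2b, with ranges that overlapped for each gene. Replicate 2 was lower in OLs for all 3 genes, by 0.243-fold for Casp4, 0.883-fold for Gbp5 and 0.361-fold for Ifi27l2b.

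DMSO alone was compared with no treatment in OPCs. The log2 fold changes were 0.60 for Casp4, 0.59 for Gbp5 and 0.55 for Ifi27l2b (standard errors 0.48, 0.38 and 0.43), with an adjusted p of 1.00 for each in the edgeR test and overlapping ranges. The test called 0 of 13244 genes, a share of 0%, and 78 (0.589%) had an unadjusted p-value under 0.05. DESeq2 called 0 genes as well, and with the replicate number as a block edgeR called 3 genes, all lower with DMSO.

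Ordered by mean CPM, Casp4 ran from DTG-treated OPCs (3.91 ± 1.73) through DTG-treated OLs (3.83 ± 1.57), DMSO-treated OPCs (2.64 ± 1.36), untreated OPCs (1.79 ± 0.575) and untreated OLs (1.09 ± 0.258) to DMSO-treated OLs (0.765 ± 0.264). Each neighbouring pair in that order overlapped in range. Gbp5 was highest in DTG-treated OLs (4.08 ± 0.870), followed by DTG-treated OPCs (2.90 ± 0.759), DMSO-treated OPCs (2.80 ± 0.591), untreated OPCs (1.89 ± 0.854), untreated OLs (1.42 ± 0.806) and DMSO-treated OLs (0.940 ± 0.393), again with overlap between all neighbours. Ifi27l2b was highest in DMSO-treated OPCs (4.51 ± 1.79), then in DTG-treated OPCs (3.47 ± 0.707), untreated OPCs (3.12 ± 1.30) and DTG-treated OLs (2.99 ± 1.60), which all overlapped. A gap separated these from DMSO-treated OLs (0.460 ± 0.269) and untreated OLs (0.401 ± 0.0525). The SDs are over 4 libraries, or 3 for untreated cells.

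Levels of different genes are comparable only per kilobase of exon. In DTG-treated OLs the level was 6.64 ± 3.54 CPM per kb for Ifi27l2b, 3.13 ± 1.28 for Casp4 and 1.31 ± 0.280 for Gbp5 (SD, n = 4). In DMSO-treated OPCs it was 10.0 ± 3.96, 2.16 ± 1.11 and 0.901 ± 0.190 CPM per kb. The gene order per kb was thus the same in both conditions.

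Transcripts that mark other cells of the cultures were examined as well. Of 16 microglial markers listed, 1 could be named in the files, Cd68, a lysosomal protein of macrophages and microglia. DMSO-treated OLs had 0.345, 0.364, 0.404 and 0.147 CPM of it and DTG-treated OLs 0.369, 0.615, 0.376 and 0.361 CPM, between 2 and 7 counts per library. These ranges overlapped, and the counts were too few for the gene to be tested. In DMSO-treated OPCs Cd68 was at 0.922 to 2.37 CPM, and it fell in untreated differentiation by 2.32 on the log2 scale (adjusted p = 0.0109, edgeR test). Other markers that could be named fell too, in a comparison where 11.7% of 13110 tested genes were called lower. Cd68 and these markers could be named mostly because the study had called them. Their falls were therefore largely set in advance, and nothing is read from them about other cell types. Snap25, Stmn2 and Gap43, listed as neuronal markers, changed by -3.68, -2.79 and -1.44 in that comparison (adjusted p = 0.000267, 0.000127 and 0.00269, edgeR test). Rgs5, listed as a marker of mural cells, changed by -3.58 (adjusted p = 0.0102, same test). Cd14, a myeloid surface receptor picked after its values were seen, ran from 0.207 to 0.656 CPM with DMSO and from 0.482 to 0.977 CPM with DTG in OLs.

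Relative to the mean in DMSO-treated OPCs, DTG-treated OLs held 25.8% of the Cd68 level and 32.3% of the Cd14 level. DMSO-treated OLs held 18.9% and 17.9%, so both means were higher with DTG, with overlapping ranges. For Casp4, Gbp5 and Ifi27l2b, DTG-treated OLs held 145%, 146% and 66.3%, and DMSO-treated OLs 29.0%, 33.6% and 10.2%. The members were chosen for being higher in DTG-treated than in DMSO-treated OLs. Cd68 was not, and Cd14 was picked after its values were seen, so the percentages are a description. The other 15 microglial markers were not analysed here, and the part of microglia in the members' levels was not tested.

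Neither OPC marker passed the test for DTG in OLs. Pdgfra, the receptor for platelet-derived growth factor, differed between DTG and DMSO by -0.26 on the log2 scale (adjusted p = 0.756, edgeR test), and by 0.074 after scaling to ERCC counts. Cspg4, the NG2 proteoglycan, differed by 0.23 (adjusted p = 0.742, same test). The myelin transcripts were lower in DTG-treated OLs. Mog fell by 1.01 on the log2 scale (adjusted p = 0.0116, edgeR test), a call lost with scaling to ERCC counts (adjusted p = 0.831) and held in 2 of 8 fits that left out 1 library, in which the log2 fold change ran from -1.11 to -0.94. Mbp and Enpp6 had log2 fold changes of -1.40 and -1.08 (adjusted p = 0.0772 and 0.131, edgeR), which did not pass. Both passed with DESeq2 (adjusted p = 0.000963 and 0.0240), without a filter on low counts (adjusted p = 0.00958 and 0.0357, edgeR) and in a fit blocked on the replicate number (adjusted p = 1.20e-06 and 1.23e-05, edgeR). The part of this difference in the levels of Casp4, Gbp5 and Ifi27l2b was not tested.

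**Figure D3:**
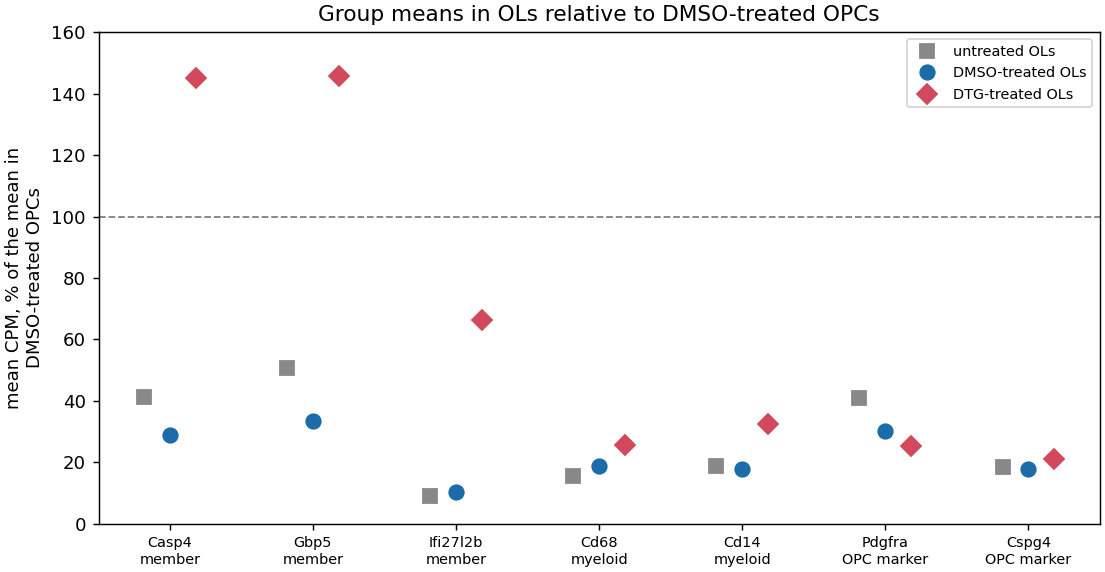
Mean CPM in untreated, DMSO-treated and DTG-treated OLs as a percentage of the mean in DMSO-treated OPCs, for the 3 members, 2 myeloid transcripts and 2 OPC markers. In DTG-treated OLs the members, chosen for being higher there than with DMSO, stand at 145%, 146% and 66.3%. The other 4 genes stay at or below 32.3% there. Of these, Cd14 was picked after its values were seen. The means of Cd68 and Cd14 are lower in DMSO-treated OLs, at 18.9% and 17.9%.

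The pathways around the members were listed from pyroptosis, guanylate-binding and immunity-related GTPases, type I interferon responses, antigen presentation, receptors and signalling, NF-kB targets, and other caspases and apoptosis. Of 176 distinct symbols, 14 could be matched to an identifier, 11 of them besides the members. No gene of antigen presentation or of the NF-kB targets was among them. The identifiers that can be named are mostly genes that the study itself called between these libraries, so the 11 are not an independent sample of the pathways.

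In DTG-treated OLs, 0 of the 9 that were tested were called by edgeR, against a background of 0.559% in either direction, and 7 of 9 had a positive log2 fold change. Their median was 0.25 beside 0.0089 over all genes. Gbp2, the family member next to Gbp5, had means of 1.77 ± 0.603 CPM in DTG-treated and 1.13 ± 0.564 CPM in DMSO-treated OLs (SD, n = 4 each), and its log2 fold change was 0.64 (adjusted p = 0.547, standard error 0.42). Isg20, an interferon-induced exonuclease, had 0.68 (adjusted p = 0.445), and Bcl2, which restrains apoptosis, had 0.83 (adjusted p = 0.403), all in the edgeR test. Gsdme, a gasdermin that forms pores after caspase cleavage, had 0.28 (adjusted p = 0.788, same test).

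Aim2, a sensor of cytosolic DNA that assembles an inflammasome, went the other way. It was at 0.837 ± 0.409 CPM in DTG-treated and at 2.72 ± 1.60 CPM in DMSO-treated OLs (SD, n = 4 each), and the log2 fold change of -1.70 did not pass the edgeR test (adjusted p = 0.148, standard error 0.51). Aim2 was the one gene among them with an unadjusted p-value under 0.05 in that test. DESeq2 gave an adjusted p of 0.0493, and edgeR blocked on the replicate number gave -1.63 with an adjusted p of 0.00525. In untreated differentiation Aim2 rose by 4.74 on the log2 scale (standard error 0.75, adjusted p = 0.000879, edgeR test), from at most 0.187 CPM in OPCs to between 1.61 and 6.01 CPM in OLs. Ifi27l2b fell in that comparison.

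The receptors and signalling genes did not pass the test with DTG in OLs. Jak2, a kinase of cytokine receptors, had a log2 fold change of 0.25 (adjusted p = 0.627) and Socs3, a feedback inhibitor of such receptors, one of 0.13 (adjusted p = 0.846, edgeR in both). Among the apoptosis genes Apaf1, the adaptor of the apoptosome, had 0.018 and Casp2, an initiator caspase, had -0.18, which became 0.26 after scaling to ERCC counts. Cgas, a DNA sensor upstream of interferon, and Pmaip1, a BH3-only protein, had too few counts in OLs for a test. Pmaip1 ranged from 0.264 to 1.99 CPM with DTG and from 0 to 0.510 CPM with DMSO.

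In DTG-treated OPCs 0 of 10 tested pathway genes were called. The pathway genes could be named mostly because the study had called them, largely between DMSO-treated OPCs and OLs. Shares over all genes are therefore no like background for differentiation. Between untreated OPCs and OLs 1 of 10 was called higher, Aim2, and 4 were called lower, beside 10.9% and 11.7% of all genes. Those lower were Cgas (-2.97, adjusted p = 0.00163), Socs3 (-2.09, adjusted p = 0.000145), Casp2 (-1.21, adjusted p = 0.00398) and Gsdme (-1.01, adjusted p = 0.0229) in log2 fold change by the edgeR test. The call of Gsdme was lost in a fit blocked on the replicate number (-0.96), as it was in 3 of 6 fits that left out 1 library, up to -0.73 without replicate 2 of the OPCs, and that of Casp2 in 1 of them (-0.99, without replicate 2 of the OLs) and with replicate 3 added (adjusted p = 0.160, edgeR). Gbp2 stood at -0.86 and was not called (adjusted p = 0.287, same test), with values from -1.51 without replicate 2 of the OLs to -0.12 without replicate 2 of the OPCs. Gbp5 ran from -0.94 to -0.0050 when the same libraries were left out.

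Between DMSO-treated OPCs and OLs 10 of 10 tested pathway genes were called lower by edgeR, against 18.3% of all genes, with a median log2 fold change of -1.66 beside -0.12 over all genes. These genes could be named mostly because the study had called them in this same comparison, so the count was largely set in advance. Nothing is read from the share or the median. The count of pathway genes called lower ran from 8 to 10 with 1 library left out. Aim2, at 0.0581 CPM in the OPCs and 2.72 CPM in the OLs, did not pass the filter on low counts and is not among the 10. Cgas had -3.67 (adjusted p = 7.72e-05) and Gbp2 -1.30 (adjusted p = 0.0431) in the edgeR test. The call of Gbp2 was lost in 5 of 8 fits that left out 1 library, down to -0.83 without replicate 3 of the OPCs, and with DESeq2 size factors (adjusted p = 0.0508).

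**Figure D4:**
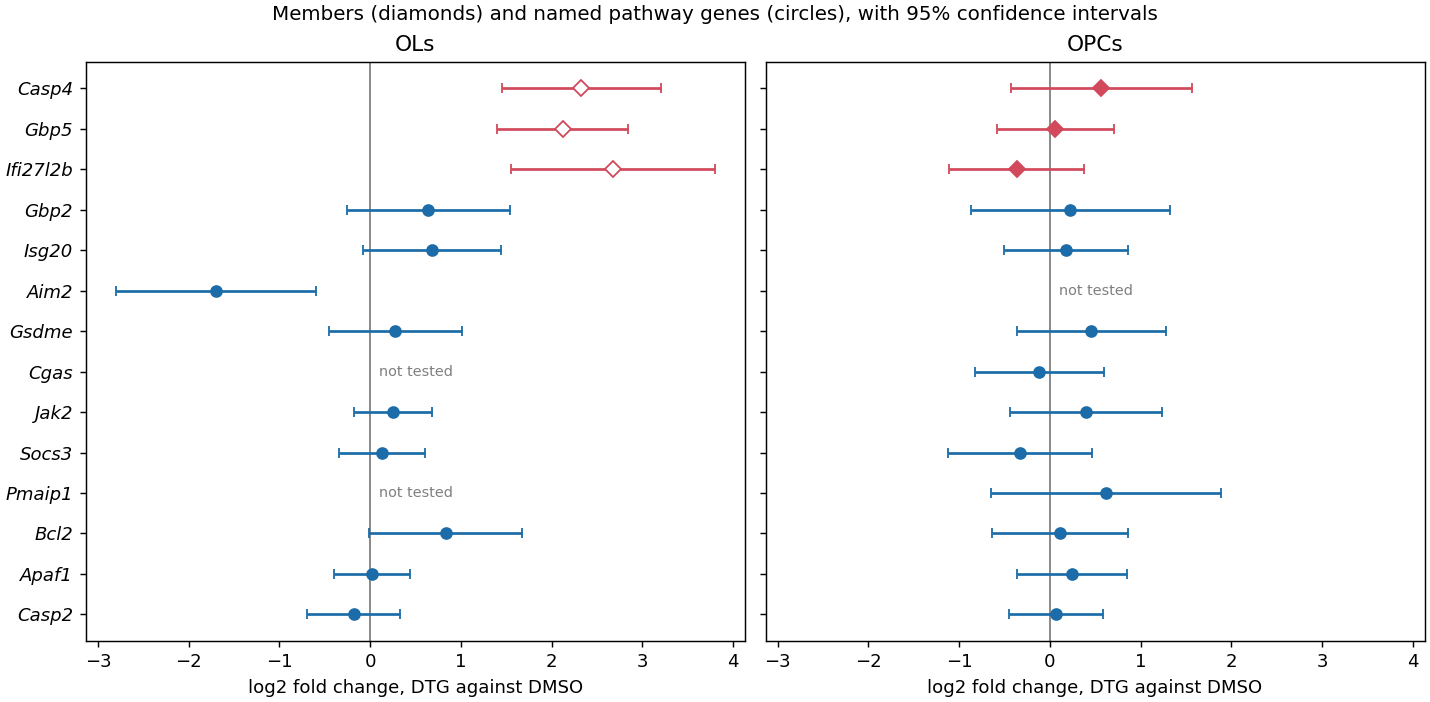
Log2 fold change of DTG against DMSO with 95% confidence intervals in OLs and in OPCs, for the 3 members as diamonds and 11 named pathway genes as circles, with open diamonds where the members are a description. In OLs the members lie between 2.12 and 2.68, and Aim2 is the one gene whose interval lies below 0.

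Genes that lie close to the members in the genome were examined next. Within 200 kb of Casp4 the files list 2 other genes, both below 0.5 CPM in every condition and not tested. Within the same distance of Gbp5 there are 5, of which 2 were tested in OLs and 0 called by edgeR. These were Gbp2, described above, and Pdlim5, a cytoskeletal scaffold protein with a log2 difference of 0.43 (adjusted p = 0.179, edgeR test). A gene without a symbol between Gbp5 and Gbp2 was at 0.276 CPM in DTG-treated OLs, 0.186 CPM in DMSO-treated OLs and 0.672 CPM in DMSO-treated OPCs. Another one between them, nearer to Gbp5, was at 0.0339, 0.0385 and 0.272 CPM in these conditions. Neither was tested in OLs.

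Within 200 kb of Ifi27l2b there are 12 other genes, of which 3 had no count in any of the 22 libraries on the common annotation. Of the 5 that were tested in OLs edgeR called 0, with log2 fold changes from -0.53 to 0.59. The nearest, on the opposite strand and less than 2 kb away, was at 37.7 CPM in DMSO-treated and 43.2 CPM in DTG-treated OLs, a log2 difference of 0.20 (standard error 0.40). With 0.559% of all genes called in this comparison, a count of 0 among so few neighbours says little.

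**Figure D5:**
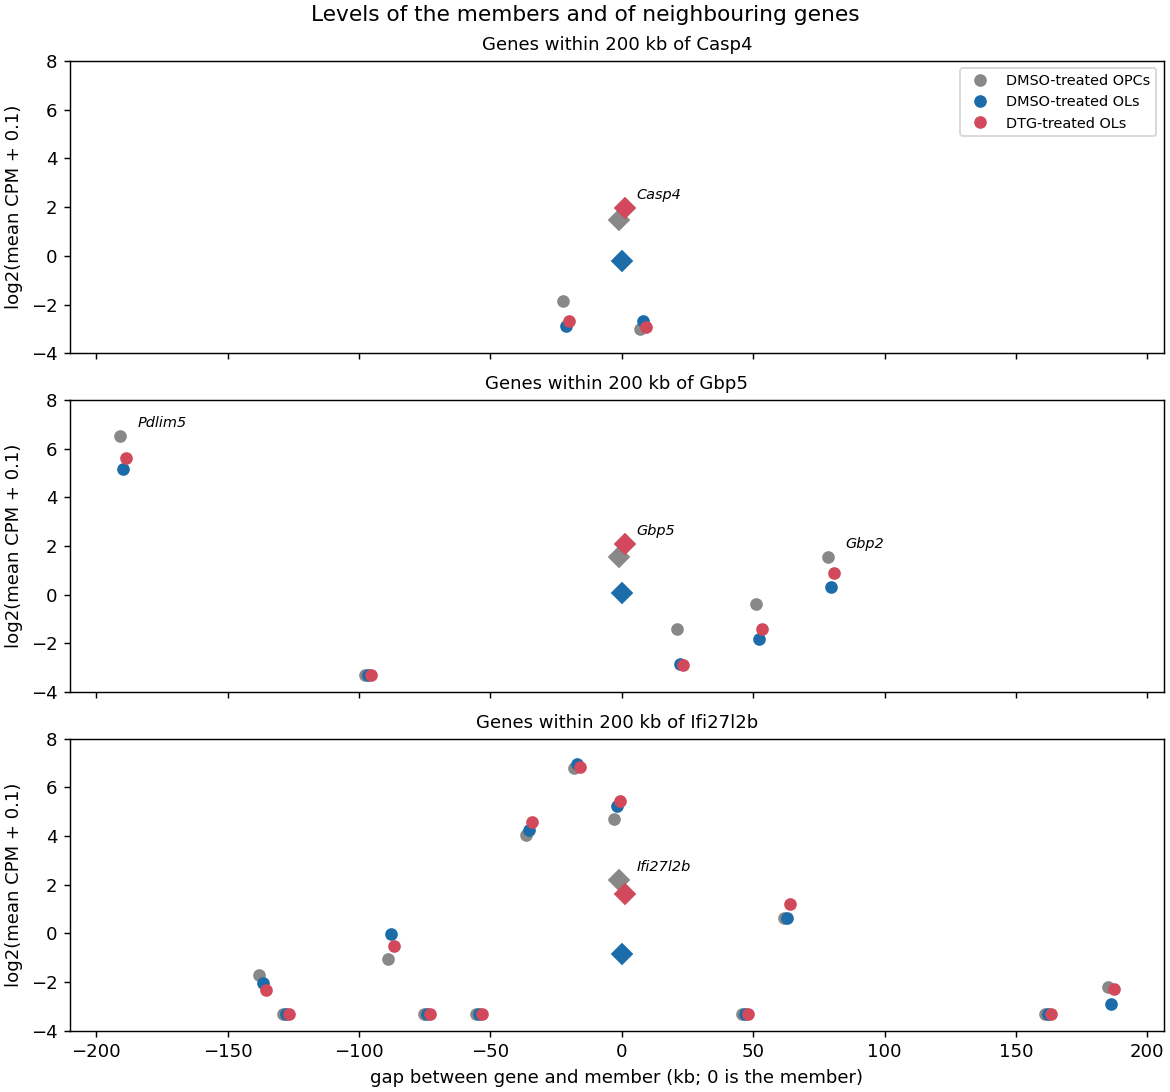
Mean level, as log2 of CPM plus 0.1, of the members (diamonds at 0 kb) and of the other genes within 200 kb (circles), by signed distance in kb, in DMSO-treated OPCs, DMSO-treated OLs and DTG-treated OLs. The members, chosen for it, differ between DMSO-treated and DTG-treated OLs, while no tested neighbour was called between these conditions, with log2 fold changes from -0.53 to 0.64.

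Across the 22 libraries on the common annotation the members resembled each other. Pearson's r of log2 CPM was 0.83 between Casp4 and Gbp5, 0.78 between Casp4 and Ifi27l2b and 0.73 between Gbp5 and Ifi27l2b. Around the means of the 6 conditions these values were 0.46, 0.49 and 0.23. The libraries share conditions, litters and depth, and the genes were chosen together, so the correlations are a description.

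Among 14046 genes the nearest to Gbp5 by this measure was Casp4, followed by Prr5l, a partner of mTOR complex 2 (r = 0.81), and Sfrp4, a secreted Wnt inhibitor (r = 0.81). The nearest to Casp4 were Ubr7, a ubiquitin ligase (r = 0.88), and Mdfic, a transcriptional regulator (r = 0.87), and Gbp5 ranked 7 for it. Of the 5 genes nearest to Ifi27l2b 1 has a symbol, Rps27l, a ribosomal protein paralog (r = 0.88). The Rps27l log2 fold change was 0.55 in OLs with DTG and -1.28 in untreated differentiation, both smaller than those of Ifi27l2b, which were 2.68 and -2.93.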

How the data were processed

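The authors enriched poly(A) RNA, aligned the reads with STAR 2.5.2b and counted uniquely mapped reads on exons with featureCounts (Subread 1.5.2), and they deposited raw counts per gene and library with ERCC transcripts. The members and the lists were chosen with earlier results of these data known. Groups came from the sample labels. In R 4.3.3, edgeR 4.0.16 was fitted to the counts of the libraries compared, with filterByExpr, TMM scaling, a quasi-likelihood F test and Benjamini-Hochberg adjustment over all genes tested; calls needed an adjusted p below 0.05 and a log2 fold change above 1 in size. Differences of members that share libraries with their selection carry no p-value. Alternatives were DESeq2 1.42.0, its size factors, ERCC scaling, other filters, no minimum fold change, the replicate number as a block and leaving out each library. Symbols came from 2107 identifier pairs in the study's tables. Genes named were the members, list genes that were called or were among the 4 of largest change per list, genes within 200 kb, and the 5 most correlated genes per member over log2 CPM (prior count 2).

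Per the labels, libraries with the same replicate number carry the same date code in their names in all 6 conditions, which is where the pairing comes from. The methods treat independent litters as replicates, but that a code marks 1 litter is not stated. Deviations of DMSO-treated and DTG-treated libraries with the same number correlated at 0.43, 0.40, 0.40 and 0.0029 in OLs and at 0.73, -0.082, 0.59 and 0.82 in OPCs. They correlated at 0.14, 0.023 and 0.036 between untreated OPCs and OLs. Replicates 2 and 3 share a date and differ by a letter.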

Additional observations from a re-analysis of the deposited data

Results flagged for a closer look

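One value stood apart from the other libraries of its group. Casp4 was at 1.49 CPM in replicate 2 of the DTG-treated OLs, while the other 3 libraries were between 4.43 and 4.88 CPM. The gap to the nearest library made up 0.868 of the range of the group, above Dixon's critical value at the 95% level for 4 libraries, which chance passes in about 1 of 20 groups, and 18 groups of member values were examined. Gbp5 and Ifi27l2b were also lowest in that library among DTG-treated OLs, with smaller gaps.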

How the results depend on the processing

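The higher level of Casp4, Gbp5 and Ifi27l2b in DTG-treated than in DMSO-treated OLs kept its sign in each of 15 alternatives per gene. The genes were chosen for this difference, so the kept sign is a description. Dropping the minimum fold change alters only the calls, so that alternative repeats the main log2 fold change for every member. With 1 library left out the log2 fold changes ran from 2.17 to 2.59, from 1.94 to 2.39 and from 2.29 to 2.96. Of 231 refitted member values, 220 stayed on the same side of the threshold and of 0, or within 1 SD for those without a test. Scaling to ERCC counts moved the median over all genes from 0.0089 to 0.44 for DTG in OLs, from -0.0024 to 0.31 for DTG in OPCs, from -0.015 to -0.53 for untreated differentiation, from -0.12 to -1.48 for DMSO-treated differentiation and from 0.024 to 0.29 for DMSO in OPCs. The members then stood at 2.97, 2.79 and 3.17 for DTG in OLs and at -3.40, -3.15 and -4.44 for DMSO-treated differentiation. That scaling also gave 0.14 for Ifi27l2b with DTG in OPCs, and 0.26 for Casp2 and 0.074 for Pdgfra with DTG in OLs, all with the sign turned. With untreated replicate 3, Casp4 turned to -0.29 between DMSO and no treatment in OPCs. With 1 library left out, Gbp5 with DTG in OPCs lay between -0.066 and 0.20, and in OLs Socs3 lay between -0.031 and 0.25, Apaf1 between -0.079 and 0.15, Pdgfra between -0.49 and 0.044, and Cspg4 between -0.091 and 0.41. The cause was not tested in these cases.

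Of the 71 genes called for DTG in OLs 45 were higher, and the count was 129 with DESeq2, 17 with ERCC scaling (16 higher and 1 lower), 112 without a filter on low counts and 108 without a minimum fold change. With 1 library left out it ran from 29, without DMSO-treated replicate 2, to 89, and was 46 without DTG-treated replicate 3. For untreated differentiation 2974 genes (1434 higher) became 1795 with ERCC scaling (447 higher and 1348 lower) and 4983 without a minimum fold change. For DMSO-treated differentiation 4203 genes (1822 higher) became 6526 with ERCC scaling (274 higher and 6252 lower) and 6848 without a minimum fold change. With the replicate number as a block, the count for DTG in OLs was 168, that for DMSO against untreated OPCs was 3, and no call of a member changed. Depth limits the members most in DMSO-treated OLs, where all 4 libraries together hold 41 counts of Casp4, 50 of Gbp5 and 25 of Ifi27l2b.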
